A study of Homo sapiens with 20 samples.

Results

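Stress granule core proteins are encoded here by 10 genes, taken from the gene count table by their Ensembl identifiers, out of 19962 genes in that table. They are the nucleators G3BP1 (ENSG00000145907) and G3BP2 (ENSG00000138757), and the G3BP partners CAPRIN1 (ENSG00000135387), UBAP2L (ENSG00000143569) and USP10 (ENSG00000103194). The others are the prion-like RNA-binding proteins TIA1 (ENSG00000116001) and TIAL1 (ENSG00000151923), ataxin-2 (ATXN2, ENSG00000204842), and the fragile X proteins FMR1 (ENSG00000102081) and FXR1 (ENSG00000114416). All 10 had counts and passed the filter on low counts in every comparison.

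The measurements are PAR-CLIP libraries of the RNA-binding protein IGF2BP3 in HCT116, a human colorectal carcinoma line, in a derivative of genotype Tet-OsTIR1-PURO that carries an inducible plant F-box protein. PAR-CLIP crosslinks RNA that carries 4-thiouridine to a bound protein, immunoprecipitates the protein and sequences the RNA fragments, in which crosslinked positions read as T-to-C conversions. All cells received 100 µM 4-thiouridine for 15 h, and the groups were PBS for 2 h, arsenite at 250 µM for 2 h, DMSO for 4 h, and tunicamycin (TM) at 5 µg/mL for 1 h or for 4 h. Each group held 3 libraries made with the anti-IGF2BP3 antibody and 1 made with control IgG. The sample titles name arsenite and the treatment text names sodium arsenate, and the titles were followed. Tunicamycin for 1 h was compared with the DMSO group of 4 h. The labels state more than 1 RNase concentration without assigning them to libraries.

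Stress granules are cytoplasmic condensates of untranslated mRNA and protein that form when translation initiation stops, usually after phosphorylation of eIF2alpha. G3BP proteins bind RNA and drive assembly, CAPRIN1 and UBAP2L bind G3BP and promote it, and USP10 binds the same face of G3BP and opposes it. IGF2BP3 is an oncofetal RNA-binding protein of the insulin-like growth factor 2 mRNA-binding family that binds many mRNAs and enters stress granules. Arsenite is a standard inducer of these granules, and tunicamycin blocks N-glycosylation and so causes endoplasmic reticulum stress.

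The anti-IGF2BP3 libraries held 130478 to 1568406 counts and the IgG libraries 5981 to 17503. PBS replicate 2 was the smallest anti-IGF2BP3 library, and the others of its group held 423906 and 403352. Clusters, the crosslinked regions that the authors listed for each library, were found at the epithelial genes EPCAM (13 of 15 libraries), KRT8 (14), CDH1 (10), KRT18 (4) and VIL1 (1). No cluster lay at the leukocyte gene PTPRC, the collagen genes COL1A1 and COL1A2 or the endothelial gene PECAM1. Counts record RNA recovered with the anti-IGF2BP3 antibody, so more binding per molecule, more RNA per cell and unspecific background cannot be told apart. Total RNA was not analysed here. Nothing in the labels says that replicates came from separate cultures, so p-values measure the spread between these libraries only.

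The clusters place regions recovered in the anti-IGF2BP3 libraries on the genes, without setting them apart from IgG background. The 10 genes held 1456 of the 412123 clusters of the anti-IGF2BP3 libraries and 0 of the 440 clusters of the IgG libraries. Overlapping clusters merged into 164 sites, of which 30 were found in at least 10 of the 15 libraries and are called recurrent. The windows printed here are 30 bases around the position of highest cluster score, in the deepest cluster of a site. They were chosen after their values were seen, to show the leading sites of the abundant genes, sites that differed under arsenite, and the element marked in capitals. Coordinates are hg38, the strand stands in brackets, and each sequence reads 5′ to 3′ along the RNA. Capitals mark CATA, CATC or CATT, a 4-base element of the kind reported for this protein family, on the given strand only.
G3BP1 chr5:151804332-151804361 (+): agaagcaaaaaaaaagactgaatttccttg
G3BP1 chr5:151805153-151805182 (+): taatCATAgcccgtaagaaggaatgttact
G3BP2 chr4:75644728-75644757 (-): actaaataataaaaattagaacttcaaatg
CAPRIN1 chr11:34100336-34100365 (+): ttttttaaaaggaaaagataccaaatgcct
CAPRIN1 chr11:34090523-34090552 (+): gtttaggcaacaatctctttaaatacagac
CAPRIN1 chr11:34097191-34097220 (+): tttaggaggatatgatggttaccgcccttc
UBAP2L chr1:154257066-154257095 (+): acaagtgtggagagtgaggcgaatctccat
UBAP2L chr1:154268762-154268791 (+): ctttgagaaacaaggttttCATTccggtac
UBAP2L chr1:154251207-154251236 (+): caCATCggctccacagatgtcgcctggatc
UBAP2L chr1:154263390-154263419 (+): tcgaagCATCaatgcacacacctgctgttg
TIAL1 chr10:119582491-119582520 (-): atgaacacagagatgcagctgctgCATTag
ATXN2 chr12:111485779-111485808 (-): atggtgggtCATCaacagccaactccagtt
FXR1 chr3:180976429-180976458 (+): gagggatcctgaagaaatCATAtgttaaac
Over all 30 recurrent sites, 8 such windows held the element. The absence of capitals says only that these letters are not in that window.

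Under arsenite the mRNAs of 2 of the 3 G3BP partners, UBAP2L and CAPRIN1, and of the RNA-binding proteins TIA1, TIAL1 and ATXN2 were recovered more. UBAP2L, TIA1 and ATXN2 rose 2.48-fold, 2.41-fold and 2.21-fold against PBS, CAPRIN1 rose 1.58-fold and TIAL1 rose 1.44-fold. G3BP1 fell to 0.826 of its PBS level. G3BP2, USP10, FMR1 and FXR1 did not pass the test. With edgeR's quasi-likelihood F test and a 0.05 limit on the adjusted p, 6 of 10 genes were called, where 34.8% of all 6642 genes tested were called. Of the 6, 5 were higher, against 17.6% of all genes, and 1 was lower, against 17.1%. The share called was larger among genes with more counts. With a mean count of at least 50, which TIA1 and FMR1 did not reach, 5 members were called, 4 of them higher. There 1380 of 2627 genes were called, 705 of them higher. In the fit of 6642 genes the median log2 fold change was 0.425 for the 10 genes and -0.00129 for all genes tested.

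Values per library are CPM, in which each count is divided by the size of its library, scaled with TMM factors over the 15 anti-IGF2BP3 libraries. For G3BP1, the central scaffold of the granule, they were 807, 668 and 698 in PBS and 634, 633 and 577 under arsenite. All 3 arsenite libraries lay below all 3 PBS libraries, and the log2 fold change was -0.28 (SE 0.086, adjusted p 0.00709). That call was lost without PBS replicate 1 (-0.17, adjusted p 0.223), without arsenite replicate 3 (-0.21, adjusted p 0.0968), with DESeq2 (-0.26, adjusted p 0.105) and without the low count filter (-0.23, adjusted p 0.0964). Its paralogue G3BP2 had 551, 485 and 535 CPM in PBS and 599, 509 and 509 under arsenite. These ranges overlap, and the 95% interval of the log2 difference ran from -0.19 to 0.18.

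CAPRIN1, which binds G3BP and mRNA and promotes condensation, had 751, 763 and 673 CPM in PBS and 1101, 1134 and 1156 under arsenite. The groups are separate, and the log2 fold change was 0.66 (SE 0.078, adjusted p 1.69e-12). UBAP2L, a G3BP-binding protein needed for normal granule assembly, had 346, 334 and 428 CPM in PBS and 903, 1009.8 and 902 under arsenite. The arsenite libraries lay far above the PBS libraries, and the log2 fold change was 1.31 (SE 0.094, adjusted p 6.52e-27). USP10, the deubiquitinase that competes for G3BP, had 215, 246 and 214 CPM in PBS and 251, 229 and 211 under arsenite. Its groups overlap, with a 95% interval of the log2 difference from -0.22 to 0.31.

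TIA1, an RNA-binding protein with a prion-like domain, had few counts, namely 20, 0 and 23 in PBS and 35, 71 and 123 under arsenite. In CPM these are 48.8, 0 and 58.6 in PBS and 88.8, 119 and 116 under arsenite, without overlap. The 0 came from PBS replicate 2, where a count of 0 allows up to 23.0 CPM of the library total. The log2 fold change was 1.27 (SE 0.25, adjusted p 1.12e-05) and 1.05 without that library (adjusted p 0.000114). DESeq2 gave 1.43 with an adjusted p of 0.0907. Its relative TIAL1 had 154, 151 and 163 CPM in PBS and 241, 223 and 223 under arsenite. The groups are separate, and the log2 fold change was 0.53 (SE 0.15, adjusted p 0.00234).

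ATXN2, a poly(A)-binding-protein partner that takes part in granule assembly, had 102, 143.04 and 102 CPM in PBS and 254, 213 and 249 under arsenite. The groups are separate, and the log2 fold change was 1.14 (SE 0.16, adjusted p 1.49e-09). FMR1, a translational repressor, had 48.8, 31.8 and 45.9 CPM in PBS and 53.3, 63.6 and 52.8 under arsenite. The highest PBS value was below the lowest arsenite value, but the log2 fold change of 0.32 (SE 0.28) had an adjusted p of 0.397. FXR1, its paralogue, had 229, 151 and 227 CPM in PBS and 254, 238 and 251 under arsenite. Its log2 fold change was 0.19 (SE 0.13, adjusted p 0.263), and the low PBS value again came from replicate 2.

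**Figure D1:**
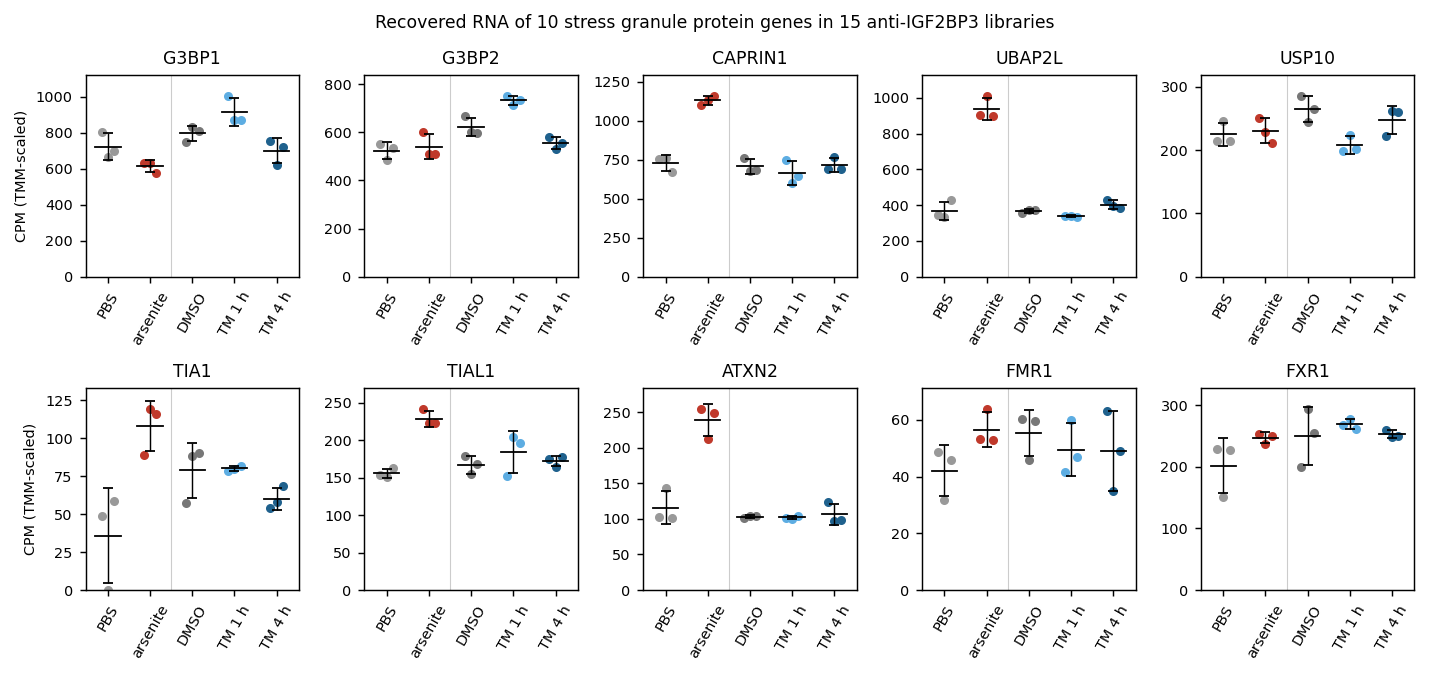
CPM of the 10 genes in each anti-IGF2BP3 library (points) by condition, with the mean (line) and SD (bar) of 3 libraries; a grey line separates PBS and arsenite, 1 library set, from DMSO and tunicamycin, which lie in 2 other sets. UBAP2L stood at 902 to 1009.8 CPM under arsenite and at 428 or less in PBS, while its DMSO and tunicamycin values lay between 332 and 429.

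Ratios of counts within a library do not depend on how libraries are scaled. UBAP2L counts per G3BP1 count were 0.429, 0.500 and 0.613 in PBS and 1.42, 1.60 and 1.56 under arsenite. For CAPRIN1 the ratio to G3BP1 was 0.931, 1.14 and 0.964 in PBS and 1.74, 1.79 and 2.00 under arsenite. Both ratios were higher in every arsenite library than in any PBS library. The ratio of G3BP2 to G3BP1 was 0.683, 0.726 and 0.766 in PBS and 0.944, 0.804 and 0.882 under arsenite. So the balance of the 2 paralogues also differed between PBS and arsenite, by a smaller step and without overlap. The arsenite values of this ratio did overlap those in DMSO (0.725 to 0.887) and with tunicamycin (0.747 to 0.852). These ratios are given as a description, with no test.

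**Figure D2:**
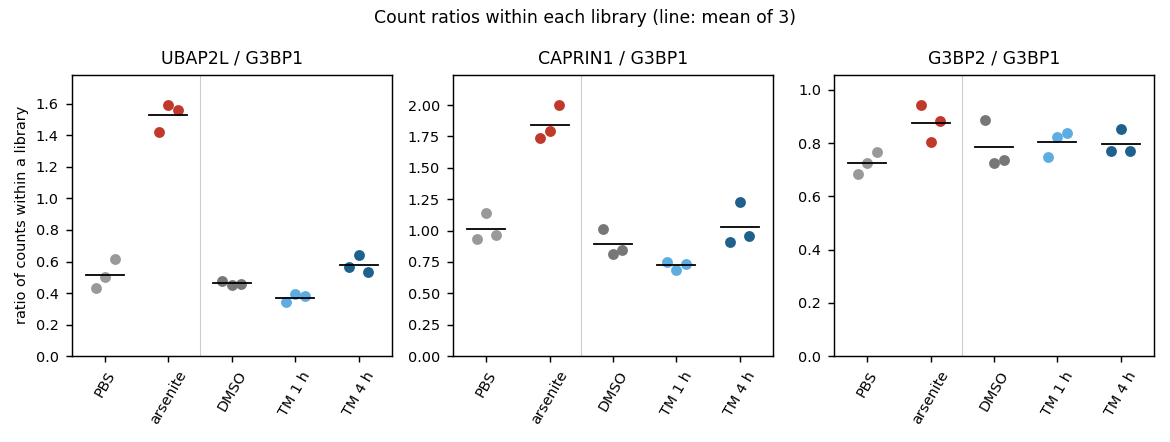
Ratio of UBAP2L, CAPRIN1 and G3BP2 counts to G3BP1 counts within each anti-IGF2BP3 library (points, with the mean of 3 as a line). The arsenite libraries lay above all others for UBAP2L (1.42 to 1.60) and CAPRIN1 (1.74 to 2.00).

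Tunicamycin gave no call among these mRNAs against DMSO. With edgeR, 0 of the 10 genes were called at 1 h, where 0.551% of 8343 genes were, and 0 at 4 h, where 5.11% were. So few genes were called that 0 of 10 lies near the share of all genes and does not set these mRNAs apart. At an unadjusted p under 0.05 there were 3 genes at 1 h and 2 at 4 h. The share of all genes at that limit was not computed, so these counts have no background. DESeq2 and the other settings tried also called 0 at both times. At 1 h those 3 genes were G3BP2 with a log2 fold change of 0.25 (SE 0.084, adjusted p 0.229), G3BP1 with 0.17 (SE 0.083, adjusted p 0.506) and USP10 with -0.33 (SE 0.12, adjusted p 0.245). At 4 h they were G3BP1 with -0.20 (SE 0.081) and TIA1 with -0.43 (SE 0.17), both with an adjusted p of 0.140. For UBAP2L and CAPRIN1 the 95% intervals of the log2 difference at 4 h ran from -0.064 to 0.28 and from -0.13 to 0.18.

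The nucleators did separate the tunicamycin times. G3BP1 had 1004.2, 870.4 and 874 CPM at 1 h and 757, 624 and 720.1 at 4 h, with 752, 831 and 809.7 in DMSO. G3BP2 had 749.7, 715 and 733 CPM at 1 h and 582, 531 and 556 at 4 h, with 667, 603 and 597 in DMSO. In both genes the 1 h libraries lay above all DMSO libraries and all 4 h libraries. The change from 1 h to 4 h was -0.37 on the log2 scale for G3BP1 (SE 0.084, adjusted p 0.001) and -0.40 for G3BP2 (SE 0.084, adjusted p 0.000413). Thus 2 of 10 genes were called, both lower, where 11.6% of genes were called in either direction and 5.99% were lower. With replicates 1 and 2 alone, the library set that excludes replicate 3, the values were -0.43 and -0.39 (adjusted p 0.00262 and 0.0161).

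The remaining genes showed no call between the times. The log2 difference of 4 h from 1 h was 0.24 for UBAP2L (SE 0.096, adjusted p 0.0934) and 0.28 for USP10 (SE 0.11, adjusted p 0.113). TIA1 (-0.37, SE 0.19) had an adjusted p of 0.210. USP10 had 199, 224 and 201 CPM at 1 h, 223, 262 and 261 at 4 h, and 285, 245 and 265 in DMSO. For CAPRIN1, TIAL1, ATXN2, FMR1 and FXR1 the adjusted p was 0.382 or more.

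**Figure D3:**
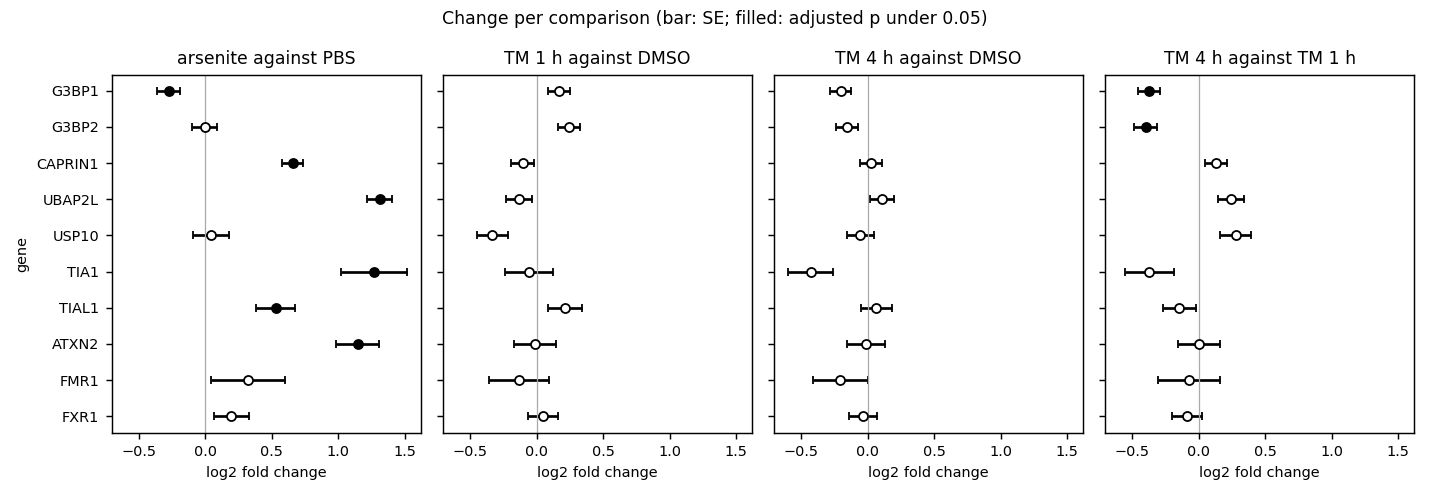
Log2 fold change of each gene in 4 comparisons, with its SE as a bar; filled points passed the edgeR test (adjusted p below 0.05). Filled points are 6 of 10 under arsenite, none against DMSO at either tunicamycin time, and G3BP1 and G3BP2 between 4 h and 1 h.

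The arsenite change and the 4 h tunicamycin change were compared directly, each taken against its own vehicle. The difference was called for 4 of 10 genes, all higher for arsenite, where 8.57% of 7796 genes were called higher. It was 1.69 on the log2 scale for TIA1 (SE 0.32, adjusted p 3.83e-05), 1.20 for UBAP2L (SE 0.13, adjusted p 5.78e-11), 1.15 for ATXN2 (SE 0.22, adjusted p 4.48e-05) and 0.62 for CAPRIN1 (SE 0.11, adjusted p 2.49e-05). TIAL1 (0.46, SE 0.18) had an adjusted p of 0.0694. For G3BP1 the difference was -0.070, with a 95% interval from -0.30 to 0.17. The stresses lasted 2 h and 4 h and lay in different library sets.

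Across the 5 conditions, UBAP2L, CAPRIN1, TIA1, TIAL1 and ATXN2 had their highest mean under arsenite. For UBAP2L, CAPRIN1, TIAL1 and ATXN2 the arsenite values overlapped no other condition, while the lowest arsenite value of TIA1 (88.8 CPM) lay below its highest DMSO value (90.1 CPM). G3BP1 (916 ± 76.3 CPM, SD, n = 3), G3BP2 (732 ± 17.4) and FXR1 (269 ± 7.88) had theirs at 1 h of tunicamycin. The FXR1 values at 1 h, 262 to 278 CPM, lay inside its DMSO range of 200.3 to 293. USP10 was highest in DMSO (265 ± 20.0) and FMR1 under arsenite (56.6 ± 6.11), each overlapping the next condition. FMR1 showed overlap between every pair of neighbours in its order, and so did USP10. The highest condition mean exceeded the lowest 3.02-fold for TIA1, 2.77-fold for UBAP2L and 2.34-fold for ATXN2, and 1.27-fold for USP10. Summed over the 10 genes, the level was 3123 ± 141.1 CPM in PBS, 4333 ± 74.6 under arsenite, 3413 ± 5.44 in DMSO, 3545 ± 124 at 1 h and 3264 ± 87.0 at 4 h.

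The members did not share one profile. Across the 15 libraries, the log2 CPM of TIA1 correlated with the mean profile of the 10 genes at r = 0.89, that of TIAL1 at 0.75 that of FMR1 at 0.71, that of UBAP2L at 0.69 and that of FXR1 at 0.69. For CAPRIN1 and ATXN2 r was 0.52 and 0.48, for G3BP2 it was 0.20, and for G3BP1 and USP10 it was -0.13 and -0.12. The count of 0 for TIA1 in PBS replicate 2 enters both its own profile and the mean. Without that library, an alternative chosen after the data were seen, r over 14 libraries was 0.93 for ATXN2, 0.89 for UBAP2L, 0.86 for TIAL1, 0.83 for CAPRIN1 and 0.82 for TIA1. It was then 0.49 for FMR1, 0.11 for FXR1, -0.03 for USP10, -0.20 for G3BP2 and -0.48 for G3BP1. Each gene is part of the mean it was set against, and the libraries share sets and depth. Among 3329 other genes, those most like the mean profile were ENSG00000050344 (r = 0.952) and ENSG00000138768 (r = 0.934), over the same 15 libraries. Without PBS replicate 2 their r was 0.907 and 0.859.

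The genes differed in how their cluster reads were spread over the merged sites, and site numbers depended on the merging rule. On G3BP2, 1 site held 65.6% of the cluster reads of the gene, and on CAPRIN1 1 site held 64.6%. On FXR1 the leading site held 49.6%, on G3BP1 32.6% and on UBAP2L 20.3%. UBAP2L had 8 recurrent sites over 17916 bases, G3BP1 7 over 7307 and CAPRIN1 5 over 10608. G3BP2 and FXR1 had 3 each, USP10 and TIAL1 2 each, and TIA1, ATXN2 and FMR1 none. Merging by any overlap made long sites on some genes. The leading CAPRIN1 site ran over chr11:34099305-34100728 and that of G3BP2 over chr4:75644234-75645471. The leading UBAP2L site ran over chr1:154257064-154257261. At 50% reciprocal overlap CAPRIN1 and G3BP1 had 9 recurrent sites each, and G3BP2 and UBAP2L 7 each. The other members kept their numbers. The 3 sites of G3BP2 lay 8 to 1448 bases from the gene's annotated end, and those of UBAP2L 2554 to 20247 bases from it. Whether a site lies in an exon, intron or UTR was not assigned, since only gene bounds were at hand.

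Clusters are called per library and appear more readily in deeper ones, so sites were compared between arsenite replicate 1 (414033 counts) and PBS replicates 1 and 3 (423906 and 403352), which have similar depth. This choice was made after the data were seen, and with 1 arsenite library it is a description, without a test. The recurrent sites were chosen over all 15 libraries, arsenite included. All 8 recurrent UBAP2L sites held more reads under arsenite than in either PBS library, with 209 reads in all against 65 and 51. Its leading site held 52 against 22 and 19, and the site at 2554 bases from the gene end held 34 against 9 and 4. CAPRIN1 held 327 against 234 and 175, and 4 of its 5 sites were higher. On G3BP1 the 7 sites held 116 against 201 and 133, and on G3BP2 the 3 sites held 158 against 185 and 140. FXR1 held 49 against 49 and 48. Summed over the 30 sites, arsenite replicate 1 held 895 reads against 761 and 547, with 17 sites higher and 6 lower than both PBS libraries.

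The CAPRIN1 sites did not move evenly. The 2 sites within 3 kb of the gene end, which include its leading site, held 214 reads under arsenite against 200 and 160 in PBS. The 3 sites farther upstream, at 5319 to 11929 bases, held 113 against 34 and 15. The farthest of them, around chr11:34090523-34090552, held 64 reads against 17 and 0. Only reads in called clusters are counted, so a 0 means that no cluster was called there in that library. The 3 kb limit was chosen after these values were seen. On UBAP2L the 1 site within that limit held 34 against 9 and 4, and the 7 beyond it 175 against 56 and 47.

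**Figure D4:**
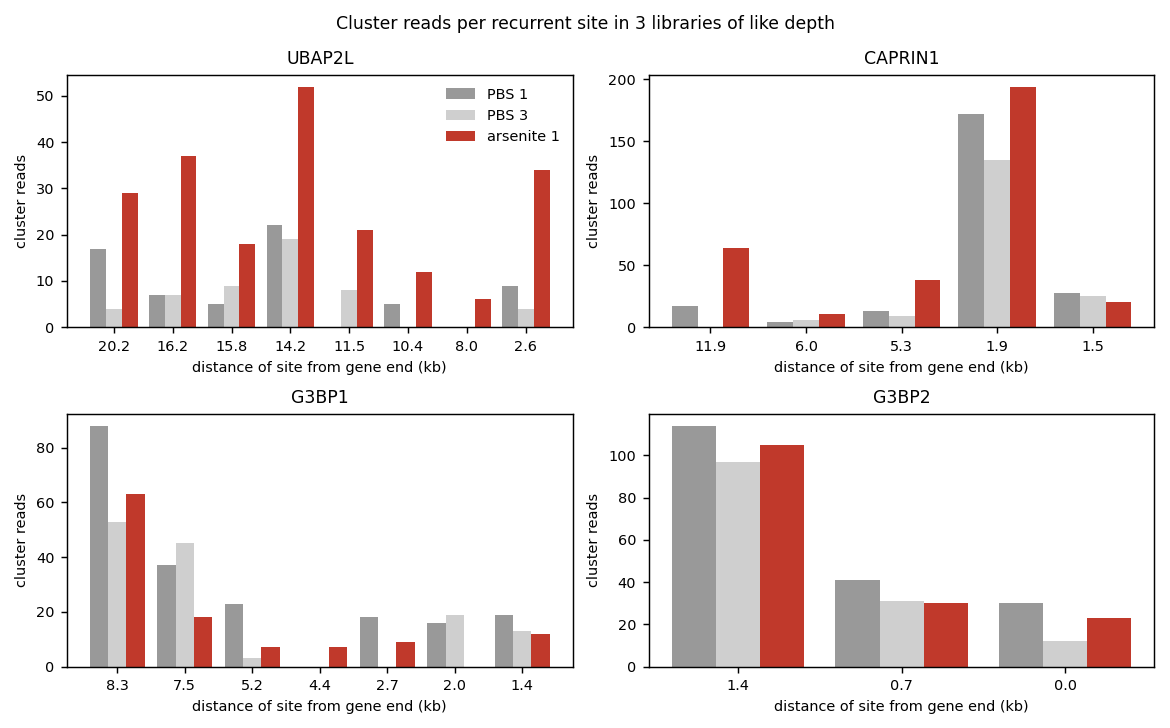
Cluster reads at each recurrent site of UBAP2L, CAPRIN1, G3BP1 and G3BP2, ordered by distance from the gene end, in PBS replicates 1 and 3 and arsenite replicate 1. All 8 UBAP2L sites are higher under arsenite; on CAPRIN1 the 3 upstream sites go from 34 and 15 reads in PBS to 113, while the 2 sites near the end go from 200 and 160 to 214.

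T-to-C conversion, the mark of crosslinking, was present at all 10 genes. The share of conversion events among all events at cluster positions was 11.4% for ATXN2, 10.8% for UBAP2L and 10.5% for TIAL1, and 6.73% for G3BP1. In the same order, T made up 23.4%, 24.2%, 28.5% and 37.5% of the cluster bases. Whether the share depends on T content was not tested. Under arsenite the UBAP2L share was 11.6% ± 0.895 (SD, n = 3), and in the 2 PBS libraries with at least 100 events it was 10.4% and 12.95%. These overlap. For CAPRIN1 it was 8.63% ± 0.911 in PBS and 8.99% ± 0.423 under arsenite, which overlap too. Over all clusters of a library the share was 7.95% to 8.13% in PBS and 8.63% to 8.81% under arsenite. In the few clusters of the IgG libraries it was 6.36% to 8.94%. The share was measured only inside called clusters, and it does not set clusters of the antibody apart from those of IgG.

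Base composition also set the members apart. Bases of UBAP2L and ATXN2 clusters were 53.1% and 52.7% G or C, against 42.9% over all clusters, while G3BP1 and G3BP2 stood at 36.9% and 36.6%. TIA1 clusters were lowest at 31.2%. An element CATA, CATC or CATT was present in 68.3% of member clusters and in 66.2% of all clusters of the same lengths. CATC alone was in 51.7% of UBAP2L clusters, against 28.3% of all clusters of the same lengths, and CATA in 9.91% against 22.5%. ACACA was in 12.6% of member clusters against 9.80%. CATA, CATC and CATT were counted on the given strand, and a cluster can hold several. Clusters of 1 site in several libraries repeat the same sequence.

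Control IgG libraries held few counts of these genes, from 5 for TIA1 and FMR1 to 30 for G3BP2, summed over 5 libraries. As CPM of the library totals, without TMM factors, G3BP2 was at 574 in IgG (95% exact Poisson interval 387 to 820, counting error only) and at 574 in the anti-IGF2BP3 libraries. CAPRIN1 was at 478 (310 to 706) against 761. Higher in IgG were TIAL1 (268 against 179), FXR1 (325 against 246), TIA1 (95.7 against 77.8) and FMR1 (95.7 against 49.8). Lower in IgG were G3BP1 (555 against 723), UBAP2L (325 against 474), USP10 (153 against 232) and ATXN2 (115 against 128). The anti-IGF2BP3 share lay inside the IgG interval for 9 of 10 genes, all but CAPRIN1. With edgeR over all 20 libraries, 3 of 10 genes were called higher with the antibody, where 7.43% of 7022 genes were: CAPRIN1 (log2 1.26, SE 0.26, adjusted p 0.000185), G3BP1 (0.95, SE 0.26, adjusted p 0.00723) and UBAP2L (1.11, SE 0.33, adjusted p 0.0165). TMM scaling set the median log2 fold change of all genes at 0.712 here. With DESeq2 or scaling by library totals 0 of 10 were called, and 3 of 178 and 6 of 92 called genes were higher in place of 522 of 582. At the share of clusters that the 10 genes hold in the anti-IGF2BP3 libraries (0.353%), the 440 IgG clusters would include 1.55, so the 0 found there says little.

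Other genes of the pathway could be found by name only through the clusters, whose reads were summed per gene and tested with edgeR. Of 48 other stress granule genes, 23 were measured under arsenite against PBS, and 7 rose and 2 fell, where 15.6% and 11.2% of 1304 genes did. LARP4, a poly(A)-binding mRNA stabiliser, rose by 2.12 on the log2 scale (SE 0.57, adjusted p 0.0285). ATXN2L, the paralogue of ataxin-2, rose by 1.85 (SE 0.43, adjusted p 0.0176), and EIF4G1, the scaffold of the cap-binding complex, by 1.16 (SE 0.33, adjusted p 0.0344). EIF4E, the cap-binding protein, fell by 1.38 on the log2 scale (SE 0.21, adjusted p 0.00336), and SERBP1, which binds idle ribosomes, fell by 0.46 (SE 0.14, adjusted p 0.048). The median of the 23 genes was 0.649 and that of all genes 0.115. In the same fit 5 of the 10 core genes were measured, and UBAP2L (2.26) and CAPRIN1 (0.86) rose. On gene counts these changes were 1.31 and 0.66. A gene without a called cluster has 0 cluster reads, as UBAP2L had in PBS replicate 2 against 42 gene counts. How far this enlarged the changes on cluster reads was not tested.

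Of 22 P-body genes, which act in mRNA decay and repression, 6 were measured and 3 rose, where 15.6% of 1304 genes rose. The 3 were TNRC6A, a partner of Argonaute (1.61), CNOT1, the scaffold of the deadenylase complex (1.14), and DDX6, a helicase of repressed mRNA (0.77). Of 16 genes for eIF2alpha kinases, phosphatases and eIF2 or eIF2B subunits, 7 were measured and 1 fell, where 11.2% of all genes fell. It was PPP1CC, a catalytic subunit of protein phosphatase 1, which fell by 0.61 on the log2 scale. Without PBS replicate 2, the smallest library, 10 stress granule genes were higher and 1 lower, SERBP1 no longer being called, 3 P-body genes were higher and 1 lower, and 4 of the eIF2alpha genes were lower. In that fit 24.2% of 1478 genes were higher and 17.4% were lower. With tunicamycin, none of the 31 stress granule, 10 P-body and 7 eIF2alpha genes measured was called against DMSO, where 0% of 2256 genes were called at 1 h and 0.399% at 4 h. At an unadjusted p under 0.05 there were 2 and 5 of these 48 genes, and no other tool was run on the cluster reads. The share of all genes at that unadjusted limit was not computed here either. Between 4 h and 1 h, RACK1, a protein of the small ribosomal subunit, rose by 1.47 (SE 0.23, adjusted p 0.0105), where 0.665% of genes were higher.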

How the data were processed

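The authors deposited whole-number counts per gene, 1 column per library. Per the submitters' processing notes the tools were bcl2fastq 2.20.0.422, UMI-tools 1.1.1, Trimmomatic 0.30, Bowtie 0.12.7 and featureCounts 2.0.1, with hg38 and GRCh38.p13, and their roles are not given. The authors also deposited clusters per library, with read counts, conversion counts and a mode score given as a fraction between 0 and 1, of which only the position of the mode was used. The cluster caller is not given in the sources used here, nor are the annotation and the strand setting of the counting, so reads shared by overlapping genes cannot be told apart.

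Tests across all genes used edgeR 4.0.16 under R 4.3.3 (filterByExpr, TMM, quasi-likelihood test, two-sided, Benjamini-Hochberg adjustment over all genes tested, threshold 0.05). The 9 libraries of DMSO and tunicamycin shared 1 fit, the 6 of PBS and arsenite another, and 12 entered the difference between stresses. Tested on simulated counts with 1 dispersion for all genes, the fits called, out of 200 genes changed 2-fold, 176 for arsenite against PBS (6417 genes), 171 for tunicamycin at 1 h against DMSO (8112), 189 for tunicamycin at 4 h against DMSO and 181 for 4 h against 1 h (8164 each), and 135 for the difference between stresses (7567), with 6 to 16 false calls. The 200 changed genes were drawn only from genes above a limit on the mean count. Recovery at lower counts and of smaller changes was not measured. DESeq2 1.42.0 and the other settings in the closing section are alternatives. Clusters were assigned to genes by RefSeq bounds (GRCh38.p14) and strand. The strand of ATXN2 was taken from its clusters. All 1118 clusters inside RefSeq promoter windows matched that sequence at the same position. The 15 pairs of libraries of 1 group all differed beyond sampling noise (chi-square, largest p 8.81e-23).

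The members and gene lists were chosen with earlier results of these data known. Named are the 10 members in every comparison, and from each list the called genes with the largest changes, up to 3 per direction. The 2 IgG cluster lists of the arsenite set carry names opposite to their samples, and their recorded samples were followed.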

Additional observations from a re-analysis of the deposited data

Results flagged for a closer look

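Differences between the stresses, and between the tunicamycin times, that passed edgeR's test are collected here. The arsenite change exceeded the 4 h tunicamycin change by 1.69 on the log2 scale for TIA1, 1.20 for UBAP2L, 1.15 for ATXN2 and 0.62 for CAPRIN1. These 4 were called under all 21 alternatives. TIA1 rests on few counts and on a PBS library with 0. Recovery at 4 h of tunicamycin differed from that at 1 h by -0.37 for G3BP1 and -0.40 for G3BP2, called under all 18 alternatives on the gene counts. Neither gene was called against DMSO at either time, and the means of the 2 times lay on opposite sides of the DMSO mean.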

How the results depend on the processing

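Of 998 recomputed log2 fold changes of single members, 974 kept their side of the threshold, 20 lost a call, 4 gained one and 0 called values reversed. With a mean count of at least 50, 4 members were called between 4 h and 1 h of tunicamycin, UBAP2L and USP10 being added. In that setting 901 of 3746 genes were called, against 967 of 8343 in the main fit. With cluster reads per gene, an alternative chosen after seeing the data, 0 were called there (G3BP1 and G3BP2 each -0.48, adjusted p 0.295) and 2 under arsenite. These fits tested 2256 and 1304 genes. Against IgG, DESeq2, library totals and a mean count of at least 50 each called 0. Leaving out 1 library gave 5 to 6 members under arsenite, 2 between the tunicamycin times, 4 for the difference between stresses and 2 to 3 against IgG.

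Genes called ranged over all settings from 6 to 52 at 1 h (46 as reported), 129 to 447 at 4 h (426), 488 to 1022 between the times (967), 1233 to 2392 under arsenite (2310), 854 to 1448 for the difference between stresses (1427) and 23 to 872 against IgG (582). A fit with the replicate block changed no member call, with G3BP1 at -0.26 and UBAP2L at 1.28 under arsenite and 902 genes between the times. Same-numbered libraries correlated at -0.12 to 0.090 in their deviations, and 10 of 24 correlated best with their own number. Differently numbered libraries correlated at -0.070 to 0.10. These values give no clear sign of pairing by number, and they cannot exclude a shared culture. Recurrent sites numbered 29 with at least 5 reads per cluster and 39 at 50% reciprocal overlap. PBS replicate 2 limits what can be seen of TIA1 and FMR1.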

Other observations

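Reads in called clusters, set against the gene counts, differed widely among the members. Cluster reads were summed within RefSeq bounds and the gene counts used an annotation that is not given. The percentages are therefore ratios of separate countings and not strict shares. Over the 15 anti-IGF2BP3 libraries, cluster reads came to 85.9% of the gene counts for CAPRIN1, 85.3% for G3BP2, 74.1% for UBAP2L and 71.5% for G3BP1. They came to 64.0% for FXR1, 61.5% for USP10, 46.2% for TIAL1, 43.0% for ATXN2, 16.4% for FMR1 and 15.8% for TIA1. TIA1 and FMR1 had clusters in 7 and 5 libraries, so their values rest mainly on reads outside clusters.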
